A study of Bos taurus with 16 samples.

Results

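CFTR, AQP3 and CLCA1 encode proteins of fluid and mucus secretion in the uterine lining. They were followed through every array of a cattle study of subclinical endometritis. They are 3 of the 9155 genes that the array's annotation names singly, and 4 of its 24016 probe sets, controls left out, carry exactly 1 of their symbols. CFTR has 2 probe sets, Bt.468.1.S1_at and Bt.20603.2.S1_at. AQP3 has Bt.23516.1.S1_at and CLCA1 has Bt.29094.1.S1_at. A probe set counted as measured in a tissue when its log2 signal was above 4 on at least 2 of that tissue's arrays. All 4 passed in endometrium, among 13421, and 2 of 4 passed in blastocysts, among 11014.

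CFTR is a chloride and bicarbonate channel of the apical membrane of secretory epithelium. Chloride enters the cell from the blood side through cotransporters such as SLC12A2 and leaves through CFTR into the lumen, and sodium and water follow. In rodents, uterine CFTR is raised by oestrogen and lowered by progesterone, and uterine fluid is most abundant at oestrus. AQP3 is a channel for water and glycerol. CLCA1 is a protein secreted by goblet cells that, in human cells, raises the current of a calcium-activated chloride channel; it is itself no channel. Progesterone dominates the cow's uterus by the week after oestrus, when the blastocyst lies free in its fluid.

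The samples came from 49 superovulated cows. Endometrium was brushed off with a cytobrush immediately before embryos were flushed on day 7, and on day 0, 2 h ahead of insemination. Cows with a count of polymorphonuclear cells (PMN, mostly neutrophils) above 0 were classed as subclinical endometritis (SE), and cows with a count of 0 as healthy endometrium (HE). Endometrium pools numbered 3 for SE and 2 for HE on day 7, and 3 for SE and 3 for HE on day 0. Blastocysts were flushed from the same cows and pooled by their donors' status on day 7, 10 to a pool, into 3 SE pools and 2 HE pools. All cows had been superovulated and inseminated, so no group is an unstimulated cycle. Each array held the RNA of a pool, and p-values measure the spread between pools, not between cows. The labels do not say which cows entered which pool, or whether the same cows stand behind the pools of both days.

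The median log2 signal of an array was 4.18 to 4.30 for the 11 of endometrium and 3.08 to 3.12 for the 5 of blastocysts. Levels were not compared between the tissues. SE day 0 replicate 2 stood apart from the rest of its day, with a mean correlation of 0.961 with the other day 0 arrays, where the others had 0.975 to 0.979. Its GAPDH 3' minus 5' signal, a measure of RNA breakage and of amplification, was 0.578, against 0.0264 to 0.141 on the other day 0 arrays. The 5 day 7 endometrium arrays had 0.215 to 0.574, all above the day 0 arrays other than SE replicate 2, and its part in the day 7 over day 0 changes given here was not tested. Of 13 epithelial cell markers on the array 12 were measured in endometrium, and of 8 trophectoderm and inner cell mass markers 7 were measured in blastocysts. Of the mucus, ciliated cell and neutrophil lists 0 genes were measured in blastocysts.

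CFTR, read by Bt.468.1.S1_at, fell by 5.79 on the log2 scale between day 0 and day 7 in SE endometrium and by 4.97 in HE endometrium. These are falls of 55.2-fold in SE and 31.3-fold in HE. The probe set is annotated to the RefSeq transcript of CFTR. In SE pools its log2 signal was 4.95, 4.81 and 4.69 on day 7, against 10.48, 10.78 and 10.54 on day 0. In HE pools it was 5.59 and 5.45 on day 7, against 10.49, 10.46 and 10.51 on day 0. All 5 day 7 pools lay far below all 6 day 0 pools; groups of the 2 days lay apart in this direction for 28.6% of measured probe sets in SE and 36.1% in HE. The standard error of the change was 0.13 in SE (limma, adjusted p = 6.37e-09) and 0.15 in HE (adjusted p = 4.02e-08). In SE only 38 of the 13421 measured probe sets fell further, and in HE 74 did.

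The fall stands in a comparison where a large share of the array changed. Between the days 24.1% of measured probe sets were called lower in SE and 23.2% in HE. Of the CFTR and CLCA1 probe sets, CFTR Bt.468.1.S1_at and CLCA1 were called lower in SE, and CFTR Bt.468.1.S1_at alone in HE. A brush sample is a mixture, so fewer cells of a type and less RNA per cell cannot be told apart. The mean log2 signal of the 12 epithelial cell markers was 9.99 to 10.11 in SE on day 7, against 11.20 to 11.38 in SE on day 0. In HE it was 10.32 and 10.38 on day 7, against 11.04 to 11.20 on day 0. Of these 12 markers 9 were called lower and 2 higher in SE, with a median change of -0.85. In HE 6 were called lower and 2 higher, with a median of -0.62. Their part in the fall of CFTR was not tested.

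**Figure D1:**
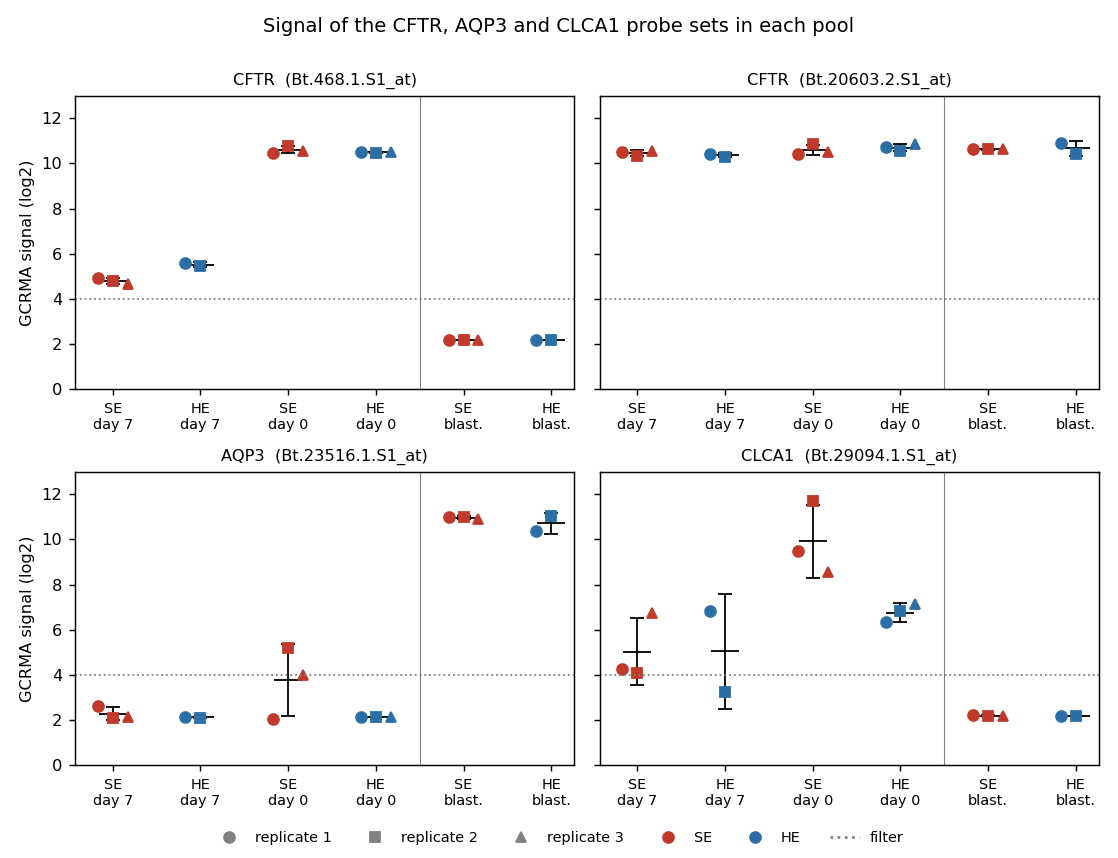
GCRMA signal on the log2 scale (vertical axis) of each CFTR, AQP3 and CLCA1 probe set in each pool, by group; points are pools, bars are the mean ± SD, and the dotted line marks the filter at log2 4. In endometrium CFTR Bt.468.1.S1_at lies between 4.69 and 5.59 on day 7 and between 10.46 and 10.78 on day 0. CFTR Bt.20603.2.S1_at lies between 10.29 and 10.85 in endometrium over both days. In blastocysts it lies between 10.42 and 10.91, and levels are not compared between the tissues.

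The other CFTR probe set gave a different picture. Bt.20603.2.S1_at, annotated to CFTR through an expressed sequence tag, read 10.52, 10.32 and 10.56 in SE on day 7, against 10.40, 10.85 and 10.52 in SE on day 0. In HE it read 10.42 and 10.29 on day 7, against 10.72, 10.53 and 10.85 on day 0. The SE groups overlapped. The HE groups did not, as was so in this direction for 36.1% of measured probe sets, and the HE gap was small. The change was -0.12 in SE (standard error 0.16, 95% interval -0.48 to 0.23) and -0.35 in HE (0.18, interval -0.74 to 0.05). Neither passed the test, with limma adjusted p-values of 0.538 and 0.138. Both intervals are far from the fall that Bt.468.1.S1_at shows.

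The 2 probe sets therefore do not carry the same signal, and which of them follows CFTR RNA was not tested. Across the 11 endometrium arrays their log2 values had a Pearson correlation of 0.597, a description over arrays that share days and status. In blastocysts Bt.468.1.S1_at lay at the lowest value of those arrays, 2.20, in all 5 pools, as did 30.9 to 31.8% of probe sets. Bt.20603.2.S1_at read 10.62, 10.62 and 10.62 in the SE blastocyst pools, against 10.91 and 10.42 in the HE pools. The array holds another probe set of the same cluster number, Bt.20603.1.A1_at, which the annotation gives to a different gene, FAM177A1. Its correlation with Bt.20603.2.S1_at was 0.898, and its level was also flat, with changes between the days of -0.15 in SE and -0.19 in HE (limma adjusted p = 0.464 and 0.417). FAM177A1 averaged 8.40 ± 0.068 in SE on day 7, against 8.55 ± 0.25 in SE on day 0 (SD, n = 3 each).

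By status, CFTR did not pass the test on either day. On day 0 the SE over HE change of Bt.468.1.S1_at was 0.11 (standard error 0.13, 95% interval -0.18 to 0.41, limma adjusted p = 0.868), and the pools of SE and HE overlapped. On day 7 it was -0.71 (0.15, interval -1.04 to -0.38), or 1.63-fold lower in SE, with an unadjusted p of 7.69e-04 and an adjusted p of 0.491. The 3 SE pools, 4.69 to 4.95, all lay below the 2 HE pools, 5.45 and 5.59. Of all measured probe sets 8.33% were lower in SE without overlap on day 7, and 0% passed the test, while 477 had an unadjusted p under 0.05. On day 7 these values sit close above the filter. In order of mean level the groups ran SE day 0 (10.60 ± 0.16), HE day 0 (10.49 ± 0.02), HE day 7 (5.52 ± 0.10, n = 2) and SE day 7 (4.81 ± 0.13, SD, n = 3 for the rest), and the day 0 groups did not differ beyond their spread.

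For Bt.20603.2.S1_at the SE over HE change was -0.11 on day 0 (95% interval -0.46 to 0.24) and 0.11 on day 7 (interval -0.28 to 0.50), with limma adjusted p-values of 0.897 and 1.00. The fall of Bt.468.1.S1_at between the days differed between SE and HE by -0.82 (interval -1.26 to -0.38, unadjusted p = 0.00208, adjusted p = 1.00). Across the array 0 of 13421 probe sets passed this test of the difference in limma, and 526 had an unadjusted p under 0.05. Alternatives moved none of the CFTR calls of Bt.468.1.S1_at, and leaving out any 1 pool gave changes between the days of -5.85 to -5.70 in SE and -5.04 to -4.90 in HE.

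Genes with a pattern most like that of CFTR Bt.468.1.S1_at over the 11 endometrium arrays were CAPN2, a calpain protease (Pearson r = 0.997), LMO2, a transcriptional adaptor (0.995), EFHD2, a calcium-binding protein (0.994), SDC2, a heparan sulphate proteoglycan (0.994), and FAM174B (0.994). After each group's mean was subtracted, r was 0.73 for CAPN2, 0.68 for EFHD2, 0.62 for FAM174B, -0.04 for LMO2 and -0.11 for SDC2. For Bt.20603.2.S1_at the list was RPS27L, a ribosomal protein paralogue (0.941), RHOB, a small GTPase (0.915), THUMPD3, a tRNA methyltransferase (0.900), FAM177A1 (0.898) and TMEM170A (0.876). The lists share no gene.

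Of the protein-coding genes next to CFTR in a RefSeq gene table, ASZ1, a germ cell protein of the piRNA pathway in mice, has a probe set here. ASZ1 read 3.39, 3.49 and 3.18 in SE on day 7, against 6.44, 5.37 and 5.94 on day 0. The HE pools read 4.74 and 2.24 on day 7, against 6.18, 7.26 and 5.60 on day 0. Of its day 7 pools only HE replicate 1 lay above the filter, so ASZ1 entered the fit through its day 0 pools. Its differences are therefore given as descriptions, with no test. Like CFTR Bt.468.1.S1_at it was lower on day 7, by 2.56 in SE and by 2.85 in HE, sizes that are poorly measured. This neighbour was chosen after its values were seen.

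CLCA1 fell between day 0 and day 7 in SE endometrium, by 4.88 on the log2 scale or 29.4-fold. Its log2 signal in SE pools was 4.28, 4.08 and 6.74 on day 7, against 9.47, 11.69 and 8.58 on day 0. The 2 days did not overlap, as was so in this direction for 28.6% of measured probe sets, and 73 of 13421 fell further. The change had a standard error of 1.05 (95% interval -7.22 to -2.53, limma adjusted p = 0.00337). Leaving out any 1 pool kept the call, with changes from -5.73 to -3.99. The wide interval goes with the spread between SE pools, an SD of 1.48 on day 7 and 1.60 on day 0. Marker levels moved over the same days in SE. The mean of 5 ciliated cell markers was 6.16 to 6.28 on day 7, against 6.72 to 8.55 on day 0, with 5 of 5 below 0 and 2 called lower. The mean of 7 neutrophil markers was 6.67 to 7.19 on day 7, against 8.76 to 10.31 on day 0, with 6 of 7 below 0 and 3 called lower. Of all measured probe sets 24.1% were called lower in SE and 23.2% in HE. In HE 3 of the 5 ciliated cell markers lay above 0, with a median of 0.22 and 0 called. Of the 7 neutrophil markers 5 lay below 0 in HE, and 2 were called lower. The part of these markers in the fall of CLCA1 was not tested.

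In HE endometrium CLCA1 read 6.84 and 3.26 on day 7, against 6.33, 6.84 and 7.12 on day 0. The day 7 pools lay far apart, and 1 of them lay inside the day 0 range. The change was -1.72 (standard error 1.17, 95% interval -4.34 to 0.90, limma adjusted p = 0.264). It was -3.51 without HE day 7 replicate 1 (adjusted p = 0.0521) and 0.07 without replicate 2 (adjusted p = 0.974), so the value rests on which pool is used. The change in SE minus that in HE was -3.16 (interval -6.67 to 0.36, unadjusted p = 0.0732, adjusted p = 1.00), and a difference between the groups was therefore not shown.

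At insemination CLCA1 was 8.85-fold higher in SE than in HE, a difference that did not pass the test over all probe sets. The 3 SE pools read 9.47, 11.69 and 8.58, against 6.33, 6.84 and 7.12 in HE. Every SE pool lay above every HE pool, as was so, in the same direction, for 3.58% of measured probe sets. The change was 3.15 (standard error 1.05, 95% interval 0.80 to 5.49), with an unadjusted p of 0.0136 and a limma adjusted p of 0.608. Only 4 of 13421 probe sets had a larger positive difference. Across the array 0.0224% of probe sets, 3 in number, passed on day 0, and 1020 had an unadjusted p under 0.05.

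Leaving out 1 pool at a time gave CLCA1 changes of 2.26 to 3.81 on day 0, with the lowest when SE replicate 2, the array that stood apart, was left out. On day 7 the SE over HE change was -0.01 (standard error 1.17, 95% interval -2.63 to 2.61), from SE pools at 4.28, 4.08 and 6.74 and HE pools at 6.84 and 3.26. These pools overlapped, and a status difference inside that interval was not detectable on day 7. In order of mean level CLCA1 ran from SE day 0 (9.91 ± 1.60) to HE day 0 (6.76 ± 0.40), HE day 7 (5.05 ± 2.53, n = 2) and SE day 7 (5.03 ± 1.48, SD, n = 3 for the rest). Only SE day 0 stands clear of its neighbour by its pools.

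**Figure D2:**
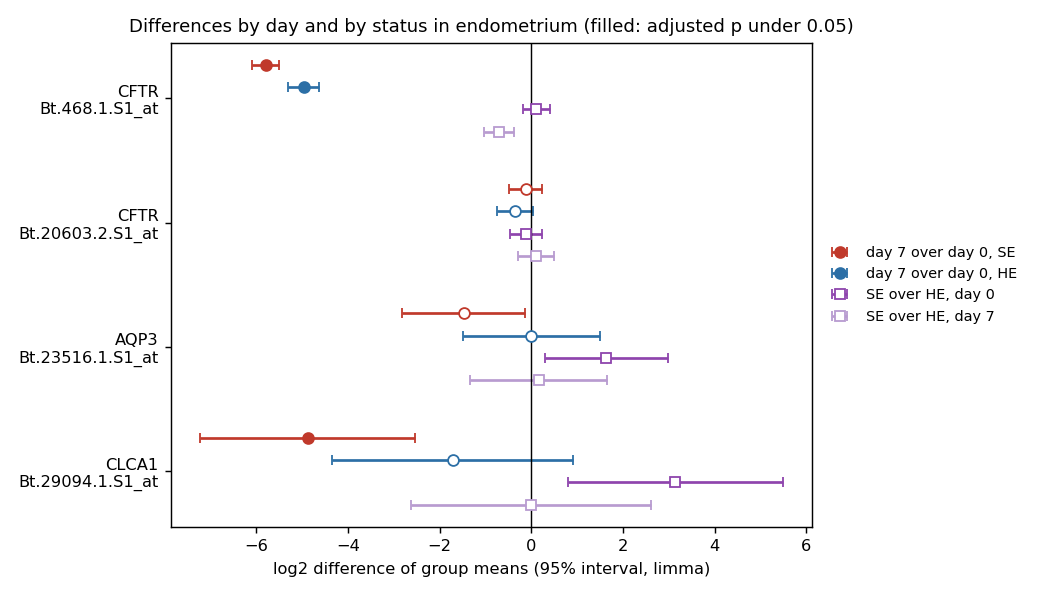
Differences of group means on the log2 scale (horizontal axis) with limma's 95% intervals (for AQP3 a description, since its high pools brought it into the fit) for the CFTR, AQP3 and CLCA1 probe sets in endometrium, by day and by status; filled symbols have an adjusted p under 0.05. The 3 filled points are the falls of CFTR Bt.468.1.S1_at in SE and HE (-5.79 and -4.97) and of CLCA1 in SE (-4.88).

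The genes most like CLCA1 across the 11 endometrium arrays were NCOA4, a receptor for the autophagy of ferritin (Pearson r = 0.960), CAPSL, a calcium-binding protein (0.950), CYP2D14, a cytochrome P450 enzyme (0.940), HSF2BP, a protein of meiotic recombination (0.932), and RSPH9, a radial spoke protein of motile cilia (0.928). Once group means were subtracted, r was 0.89 for NCOA4, 0.93 for CAPSL, 0.87 for CYP2D14, 0.82 for HSF2BP and 0.84 for RSPH9. For the genes most like CFTR Bt.468.1.S1_at the same step gave lower values, as listed above. CLCA1 and AQP3 had an r of 0.664 over the same arrays, which fell to 0.29 after that step. The first value rests mainly on SE day 0 replicates 2 and 3, the only endometrium pools with AQP3 above the filter. The value after subtraction rests mainly on SE day 0 replicates 1 and 2, and in replicate 1 AQP3 lay below the filter.

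Levels of markers of other cells on day 0 were set beside CLCA1. The mean log2 signal of 5 ciliated cell markers was 6.72, 8.55 and 6.93 in SE pools, against 5.59, 6.51 and 6.46 in HE pools. All 5 measured markers of the 5 on the array lay above 0 in SE over HE, with a median of 1.39, and 0 passed the test. For 7 neutrophil markers measured of 11 on the array, the mean was 8.98, 8.76 and 10.31 in SE, against 8.78, 7.31 and 6.85 in HE. All 7 of these lay above 0, with a median of 1.76, and 0 passed. The pool highest in CLCA1, SE replicate 2, was also highest in ciliated markers, and SE replicate 3, lowest of the SE pools in CLCA1, was highest in neutrophil markers. Their part in the CLCA1 difference was not tested.

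AQP3 was low in endometrium. It read 2.63, 2.10 and 2.14 in SE on day 7 and 2.13 and 2.11 in HE on day 7. On day 0 it read 2.07, 5.22 and 4.01 in SE, against 2.13, 2.12 and 2.12 in HE. Of the 11 arrays 9 lay below the filter of 4, and AQP3 entered the tests only through SE day 0 replicates 2 and 3.

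Since the high pools themselves brought AQP3 into the fit, its endometrium differences are given as descriptions, with no test. The SE over HE difference on day 0 was 1.64. The SE pools did not move together, since replicate 1 lay below all 3 HE pools. Without SE day 0 replicate 1 the difference was 2.48. Without SE replicate 2 or without SE replicate 3 AQP3 no longer passed the filter and has no value. The difference comes from those 2 pools and is set against HE signals below the filter. On day 7 it was 0.16, with every SE and HE pool below the filter.

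In SE the AQP3 difference, day 7 minus day 0, was -1.48, and it was -2.32 without SE day 0 replicate 1. In HE it was -0.0015. All 5 HE pools lay between 2.11 and 2.13, below the filter. The genes most like AQP3 over the 11 endometrium arrays were IQCA1, a dynein regulatory protein of cilia (Pearson r = 0.943), GAPVD1, a regulator of endocytosis (0.932), KRT15, a keratin (0.926), CFAP206, a ciliary protein (0.922), and TM9SF5 (0.917). These correlations rest mainly on SE day 0 replicates 2 and 3, the only endometrium pools with AQP3 above the filter. SE day 0 replicate 2, the highest AQP3 pool, was also the pool highest in ciliated cell markers and the day 0 pool with the highest GAPDH 3' minus 5' signal; their part in the AQP3 values was not tested.

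In blastocysts AQP3 lay far above the filter in every pool. Aquaporins of the mouse trophectoderm carry water into the blastocyst cavity, and AQP3 is one of them. It read 10.99, 11 and 10.89 in the SE pools, against 10.39 and 11.03 in the HE pools. The SE pools lay inside the HE range. The SE over HE change was 0.25 (standard error 0.23, 95% interval -0.36 to 0.86, limma adjusted p = 0.690), so a difference of up to 0.86 on the log2 scale in favour of SE lies within the interval.

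AQP11, an aquaporin of intracellular membranes, was the other family member measured in blastocysts. It read 7.94, 7.90 and 6.79 in SE pools, against 8.44 and 8.73 in HE pools. All SE pools lay below both HE pools, as 12.6% of measured probe sets did. The change was -1.04 (standard error 0.42, limma adjusted p = 0.556). CLCA1 lay at 2.20 to 2.22 in all 5 blastocyst pools and was not measured there. Of the 11014 probe sets tested in blastocysts 0% passed, and 1029 had an unadjusted p under 0.05. The GAPDH 3' minus 5' signal of these arrays was 5.47 to 5.85 in SE and 4.97 to 5.11 in HE, and its part in either value was not tested.

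The aquaporins beside AQP3 moved in opposite directions between the days. Of 12 listed aquaporins 7 are on the array and 3 were measured in endometrium. AQP5, a water channel of gland cells, read 6.44, 5.31 and 5.43 in SE on day 7, against 9.62, 11.29 and 8.94 in SE on day 0. In HE it read 7.05 and 4.89 on day 7, against 8.47, 10.02 and 8.63 on day 0. The days did not overlap in either status, as for 28.6% of measured probe sets in SE and 36.1% in HE, and AQP5 fell by 4.22 in SE (limma adjusted p = 7.97e-04) and by 3.07 in HE (adjusted p = 0.0107). The HE value was -1.99 with an adjusted p of 0.120 without HE day 7 replicate 2.

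AQP4, a water channel best known from brain and secretory epithelium, went the other way. It read 10.70, 8.75 and 10.31 in SE on day 7, against 5.10, 6.55 and 5.78 in SE on day 0. In HE it read 11.71 and 9.65 on day 7, against 5.40, 5.01 and 6.23 on day 0. AQP4 rose by 4.11 in SE (standard error 0.65, limma adjusted p = 4.83e-04) and by 5.13 in HE (0.72, adjusted p = 3.02e-04), with every day 7 pool above every day 0 pool, as was so for 29.3% of measured probe sets in SE and 32.2% in HE. Its second probe set rose by 4.15 and 4.57. Neither AQP4 nor AQP5 passed between SE and HE on either day. AQP4 changed by 0.26 on day 0 and -0.76 on day 7, and AQP5 by 0.91 and -0.24. All measured probe sets had medians of -0.06 and 0.00. AQP3 is left out here, since its high pools brought it into the fit.

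Among other chloride channels, 15 of 36 listed genes are on the array and 9 were measured in endometrium. Between the days 2 were called higher and 4 lower in SE, with a median of -0.12, and 1 higher and 3 lower in HE, with a median of -0.35. Of all measured probe sets 26% were called higher and 24.1% lower in SE, with a median of 0.01. In HE 21.8% were called higher and 23.2% lower, with a median of -0.03. CFTR enters this list by Bt.20603.2.S1_at, its probe set of highest mean. With Bt.468.1.S1_at in its place, a choice made after its values were seen, 5 were lower in SE and 4 in HE, with medians of -0.82 in both.

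TTYH2, a tweety family protein, read 3.80, 4.54 and 3.94 in SE on day 7, against 7.31, 7.16 and 7.60 in SE on day 0. In HE it read 4.56 and 4.39 on day 7, against 7.56, 7.23 and 7.15 on day 0. TTYH2 fell by 3.26 in SE (standard error 0.21, limma adjusted p = 1.66e-06) and by 2.84 in HE (0.24, adjusted p = 1.15e-05). Its day 7 signals lay below the filter in SE replicates 1 and 3 and close above it in the other pools, so these sizes are poorly measured. CLCN4, an exchanger of chloride for protons in endosomes, fell by 1.13 in SE and 1.32 in HE, and CLIC1, an intracellular chloride channel protein, by 0.82 in both. CLCN3, a related endosomal exchanger, rose by 0.99 in SE and 1.15 in HE. CLIC4, a paralogue of CLIC1, rose by 0.47 in SE (adjusted p = 0.0350), a call lost under 7 of 19 alternatives, among them leaving out SE day 0 replicate 1, HE day 0 replicate 1, SE day 0 replicate 3 and SE day 7 replicate 2 (adjusted p up to 0.120). Its other 3 probe sets rose by 0.71, 0.91 and 0.70 in SE and by 0.50, 0.86 and 0.57 in HE, and each passed in both. Between SE and HE 0 of the 9 passed on either day, with medians of 0.05 and -0.01.

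**Figure D3:**
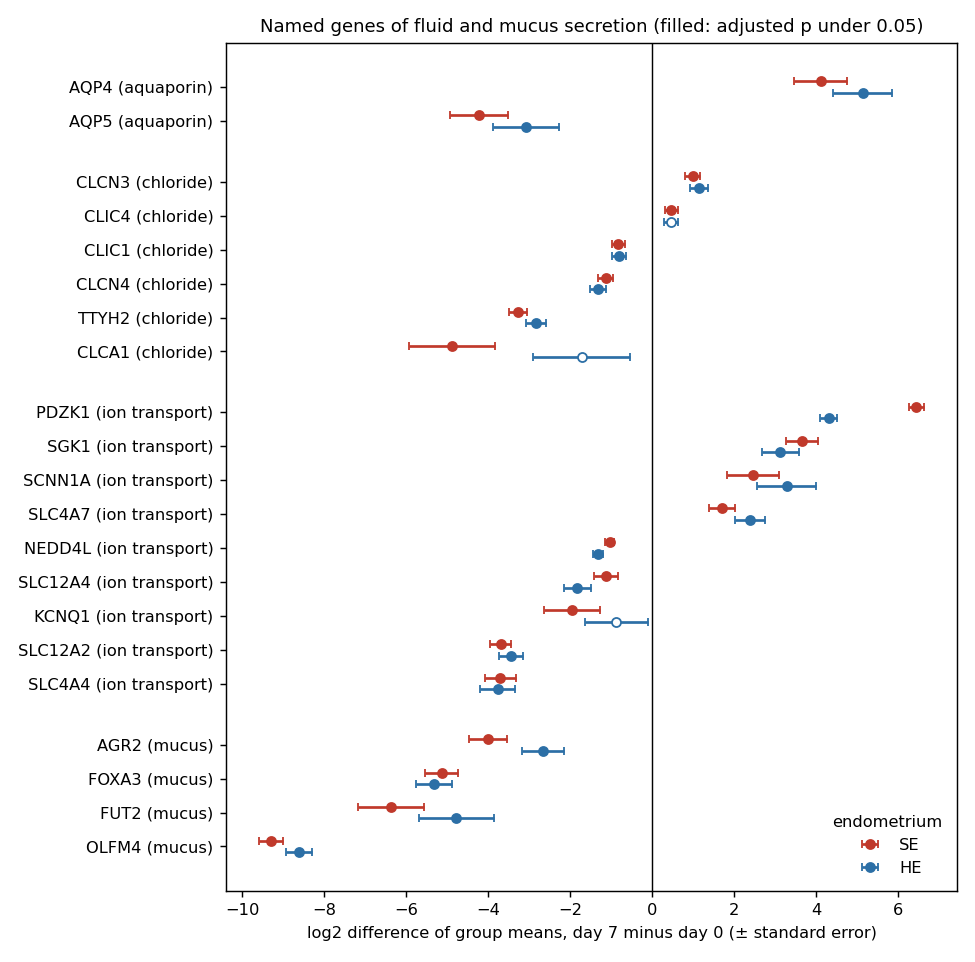
Day 7 minus day 0 difference of group means on the log2 scale (horizontal axis, ± standard error) for the named genes of the aquaporin, chloride channel, ion transport and mucus lists in SE and HE endometrium; filled points have an adjusted p under 0.05. AQP4, PDZK1, SGK1 and SCNN1A lie above 2 in both groups, and SLC12A2, SLC4A4, AQP5 and OLFM4 lie below -3 in both. SLC4A4, KCNQ1, OLFM4, FUT2 and FOXA3 lay below the filter in every day 7 pool and entered the fit through day 0 pools. Their differences are descriptions, also where a point is filled.

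Genes of the ion transport list that carry chloride or bicarbonate changed in both directions between the days. SLC12A2, the cotransporter of sodium, potassium and chloride on the blood side, read 6.55, 5.80 and 6.25 in SE on day 7, against 9.44, 10.33 and 9.90 on day 0. HE pools gave 6.56 and 6.47 on day 7, against 9.97, 9.67 and 10.22 on day 0. The days did not overlap in either status, as was so in this direction for 28.6% of measured probe sets in SE and 36.1% in HE. SLC12A2 fell by 3.69 in SE (standard error 0.26, limma adjusted p = 2.38e-06) and by 3.44 in HE (0.29, adjusted p = 1.11e-05), and its other probe set by 3.73 and 3.63. SLC4A4, a cotransporter of sodium and bicarbonate, read 2.38, 2.34 and 1.86 in SE on day 7, against 6.29, 6.33 and 5.06 on day 0. Its HE pools gave 2.44 and 2.36 on day 7, against 6.74, 5.51 and 6.23 on day 0. SLC4A4 was lower on day 7 by 3.70 in SE and by 3.76 in HE. All its day 7 signals lay below the filter, so it entered the tests only through day 0 pools. Its fall is therefore given as a description, with no test, and its size is poorly measured. SLC4A7, another cotransporter of sodium and bicarbonate, rose by 1.71 in SE and 2.38 in HE, and SLC4A2, an exchanger of chloride for bicarbonate, by 0.75 in SE (adjusted p = 0.0461) and 1.03 in HE (adjusted p = 0.0210).

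Genes of the same list that act on sodium also changed in both directions. SCNN1A, the alpha subunit of the epithelial sodium channel, read 9.71, 9.59 and 9.28 in SE on day 7, against 6.56, 8.78 and 5.86 in SE on day 0. Its HE pools read 9.63 and 10.05 on day 7, against 6.04, 7.39 and 6.24 on day 0. SCNN1A rose by 2.46 in SE (limma adjusted p = 0.00929) and by 3.28 in HE (adjusted p = 0.00419). Its days did not overlap in either status, as was so in this direction for 29.3% of measured probe sets in SE and 32.2% in HE. SGK1, a kinase that raises this channel at the membrane, read 11.81, 11.90 and 12.22 in SE on day 7, against 8.51, 8.22 and 8.24 on day 0. SGK1 rose by 3.66 in SE and by 3.13 in HE, and its second probe set by 4.18 and 3.78. NEDD4L, the ubiquitin ligase that removes the channel, fell by 1.04 in SE (adjusted p = 4.71e-05) and 1.32 in HE (adjusted p = 2.72e-05). ATP1B1, a subunit of the sodium pump, fell by 0.90 in SE (adjusted p = 0.00723) and by 0.71 in HE (adjusted p = 0.0417). SLC4A2 and ATP1B1 were named after their values were seen.

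Over the whole ion transport list, 25 of 44 genes are on the array and 19 were measured in endometrium. In SE 5 were called higher and 8 lower between the days, with a median of -0.20, and in HE 5 were higher and 5 lower, with a median of -0.02. Of all measured probe sets 26% were called higher and 24.1% lower in SE, and 21.8% higher and 23.2% lower in HE. The lower counts include SLC4A4 in both and KCNQ1 in SE, which entered the tests only through day 0 pools. SLC12A4, a cotransporter of potassium and chloride, fell by 1.12 in SE and by 1.82 in HE. KCNQ1, a potassium channel, lay below the filter in every day 7 pool, so its fall is a description and its size is poorly measured. It was lower on day 7 by 1.96 in SE, and its call in the SE count was lost under 7 of 19 alternatives. Among these were no filter and leaving out SE day 0 replicate 2 (-1.14). Others were leaving out SE day 7 replicate 1, SE day 7 replicate 2 or SE day 7 replicate 3. In HE the KCNQ1 difference was -0.87.

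PDZK1, a scaffold that holds CFTR and other transporters at the apical membrane, rose most of this list, by 6.45 in SE and by 4.31 in HE. It read 13.30, 13.35 and 13.01 in SE on day 7, against 6.75, 6.67 and 6.92 on day 0. In HE it read 12.87 and 13.32 on day 7, against 8.98, 8.44 and 8.94 on day 0. PDZK1 was the single gene of the 4 secretion lists called between SE and HE, at -2.01 on day 0 (limma adjusted p = 0.0139). That call was lost without HE day 0 replicate 1 (adjusted p = 0.0648) and without HE day 0 replicate 3 (0.0631), with the replicate number as a block (0.0972) and in a fit of the 2 day 0 groups alone (0.235). For CFTR Bt.468.1.S1_at, as given above, the same day 0 comparison gave 0.11.

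Mucus genes, among which CLCA1 is known from other epithelia, were called lower or not called between the days. Of 21 listed genes 12 are on the array and 9 were measured. In SE 6 were called lower and 0 higher, with a median of -2.31, and in HE 4 were lower and 0 higher, with a median of -1.08, where 24.1% of all measured probe sets were called lower in SE and 23.2% in HE. In HE GCNT3, a mucin glycosyltransferase, and PIGR, the receptor that carries immunoglobulins into secretions, had changes of 0.56 and 0.63 that did not pass. OLFM4, a secreted mucus glycoprotein, changed by -9.29 in SE and -8.61 in HE, and FUT2, which adds fucose to mucins, by -6.37 and -4.77. FOXA3, a factor of goblet cells, changed by -5.13 in SE and -5.32 in HE, and AGR2, which folds mucins, by -4.00 and -2.66. OLFM4, FUT2 and FOXA3 lay below the filter in all 5 day 7 pools, so the sizes of their falls are poorly measured. They entered the tests only through day 0 pools, where they are high. The counts called lower in SE and in HE include them, and those counts are a description. The mean log2 signal of the 9 genes was 6.88, 6.43 and 6.44 in SE on day 7, against 9.89, 11.16 and 9.56 in SE on day 0. In HE it was 7.41 and 6.44 on day 7, against 9.03, 10.17 and 9.08 on day 0.

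Within day 0, the order of mucus gene means over the SE pools was that of CLCA1, with replicate 2 highest and replicate 3 lowest. In HE it was not, since replicate 2 was highest in mucus genes and replicate 3 in CLCA1. Between SE and HE 8 of the 9 mucus genes lay above 0 on day 0, with a median of 0.80, and 0 passed the test. On day 7 the median was -0.26, again with 0 called. Mucus gene means of SE and HE overlapped on both days.

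**Figure D4:**
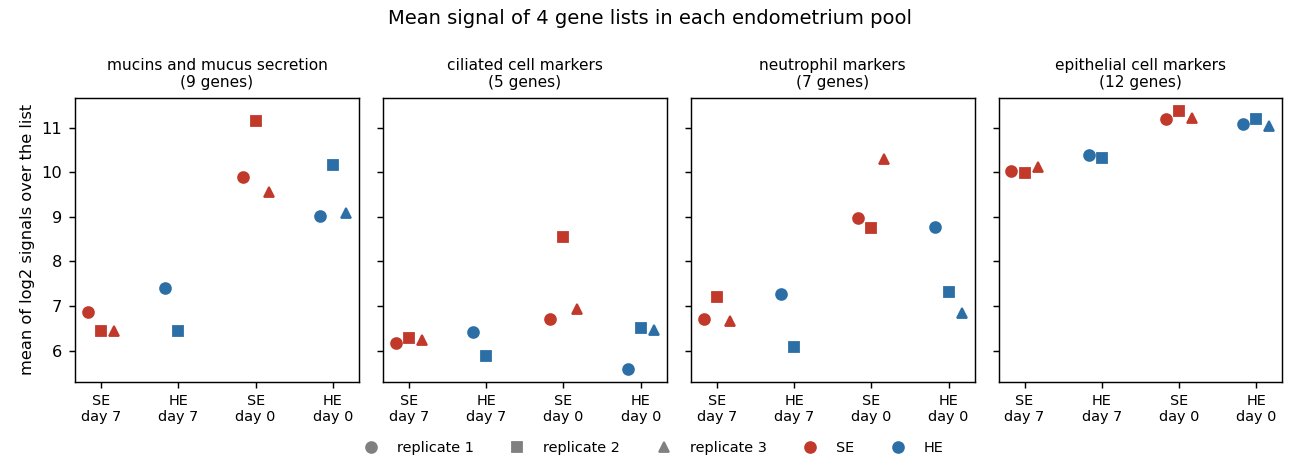
Mean log2 signal (vertical axis) of 9 mucus genes, 5 ciliated cell markers, 7 neutrophil markers and 12 epithelial cell markers in each endometrium pool; points are pools, by group. SE day 0 replicate 2 is highest for mucus (11.16) and ciliated (8.55) genes, and SE day 0 replicate 3 for neutrophil markers (10.31).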

How the data were processed

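The authors deposited GCRMA signals on the log2 scale from Affymetrix bovine arrays, hybridised after 2 rounds of amplification per the labels' protocols. The submitters' processing notes list GCRMA and limma without saying what each did. No source used here says whether endometrium and blastocysts were normalized together. Gene names came from the platform annotation, and the gene numbers of all 4 probe sets, 3 genes, matched a RefSeq gene table (ARS-UCD2.0) with unchanged symbols. No sequence or coordinate was used here.

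Values were fitted in R 4.3.3 with limma 3.58.1 (group means, empirical Bayes, two-sided), all 11 endometrium arrays in 1 fit and 5 blastocyst arrays in another, after control probe sets were dropped and the filter applied. Adjusted p-values (Benjamini-Hochberg) cover every probe set kept in the tissue, and 0.05 was the threshold. The fit was tested on simulated data. Figures were drawn with matplotlib 3.10.9.

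The genes described and the 11 gene lists were chosen with earlier results of these data known. A list gene is read by its kept probe set of highest mean. Named list genes passed the threshold with the largest change, at most 4 per direction, list and comparison. The 5 genes most alike have the highest Pearson correlation over endometrium arrays. Alternatives changed the filter, normalization, weights, trend, block, fit and pools used.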

Additional observations from a re-analysis of the deposited data

How the results depend on the processing

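Of 383 alternative values for the 22 results on CFTR, AQP3 and CLCA1, 363 kept direction and side of the threshold, and 9 results did so throughout. These counts include the AQP3 differences in endometrium, which are given here as descriptions only. Of 38 results on list genes 34 kept their call under every alternative. The 38 include SLC4A4, KCNQ1, OLFM4, FUT2 and FOXA3, which entered the tests only through day 0 pools. The mean of both CFTR probe sets in place of Bt.20603.2.S1_at gave 0.0017 and -0.30 for SE over HE on days 0 and 7, -0.30 for the interaction, and calls at -2.96 in SE and -2.66 in HE between the days, since that mean takes in Bt.468.1.S1_at. The SE over HE change of CLCA1 on day 7 was 0.45 with array weights. The day change of AQP3 in HE was 0.0068 after quantile normalization and 0.013 with the replicate block. Probe sets called on day 0 by status numbered 7 without the filter, 0 with the replicate block and 0 in the 2-group fit, against 3, and on day 7 they numbered 10 without the filter, against 0; the cause was not tested. The replicate block changed no call of CFTR or CLCA1. Deviations of same-numbered pools from their group means correlated from -0.27 to 0.24, over 0.1 in 2 of 15 pairs, and the labels tie no number to shared cows, so the numbers were not taken as pairs.

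Leaving out 1 pool at a time gave CFTR Bt.20603.2.S1_at -0.22 to 0.0063 between the days in SE and -0.29 to 0.20 in blastocysts. AQP3 gave 1.64 to 2.48 by status on day 0, -0.0052 to 0.26 on day 7, -2.32 to -1.38 between the days in SE, -0.012 to 0.0085 in HE and -0.073 to 0.57 in blastocysts. CLCA1 gave -1.80 to 1.78 by status on day 7 and -3.51 to 0.072 between the days in HE. Counts called ran from 0 to 11 by status on day 0, 0 to 2 on day 7 and 0 to 2 for the interaction. AQP3 had no value with a filter above log2 5.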
